A study of Mus musculus with 3 samples.

Results

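Barcodes rich in pigment cell transcripts were sought in single-nucleus RNA libraries of whole mouse cornea. In each library a barcode was taken when it had at least 500 genes, at most 5% mitochondrial UMIs (unique molecular identifiers, each counting 1 captured RNA molecule) and UMIs of at least 4 of 10 pigment genes. These rule genes were Pmel, Tyrp1, Dct, Tyr, Mlana, Mitf, Oca2, Slc45a2, Kit and Trpm1. Their summed share of the barcode's UMIs also had to reach 8 times their share over all barcodes of that library, and barcodes with a UMI of Rpe65 or Rgr, genes of the retinal pigment epithelium, were left out. The rule found 326 member barcodes among 317975. Of these, 245 came from WT, 81 from KO and 0 from KO_PBS.

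WT stands for untreated wild-type mice, KO for untreated mice lacking Aire, and KO_PBS for mice lacking Aire that received PBS, a buffered salt solution, for 14 days. Every library pooled corneas of 5 mice at 7 weeks of age, so each condition had 1 library and no replicate. The series' design text gives 6 weeks of age and treatment day 7 instead, and names a further arm treated with lacripep, which was not analysed here. Aire drives the display of tissue antigens by the thymus, and its loss leads to autoimmune disease of the eye surface. Aire itself had 15 UMIs over all WT barcodes, 27 in KO and 68 in KO_PBS, and 0 in members. The deleted part of the gene is not given in the sources used here, so these counts do not check the labels. With 1 library each, differences between conditions rest on single measurements, and p-values were not computed. Intervals are exact 95% Poisson or binomial (Clopper-Pearson) intervals that cover counting error only.

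Melanocytes arise from the neural crest and make melanin in melanosomes, where Tyr (tyrosinase), Tyrp1 and Dct act in melanin synthesis and Pmel forms the fibrils on which melanin is laid down. The transcription factor Mitf drives many of these genes in melanocytes and also acts in the pigmented epithelia of the eye, which descend from the optic neuroepithelium rather than from the neural crest. Melanocytes lie at the limbus and in the uvea next to the cornea. Sox10 and Pax3 mark the neural crest lineage, while Otx2, Six3, Six6 and Rax mark the neuroepithelial one.

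The promoters of the rule genes were read because Mitf is known to bind E-box motifs of the form CATGTG or CACGTG. RefSeq promoter entries on GRCm38.p6, running from 250 bases before to 50 bases after the start site, existed for 7 of the 10 rule genes. Either motif, on either strand, occurred in an entry of 5 of these 7 (Tyrp1, Dct, Tyr, Oca2 and Trpm1), and in an entry of 22.7% of all 27025 genes in the table. Counted by entry, since a gene can have several, it occurred in 6 of the 11 entries of the 7 genes and in 20.4% of all 32851 entries of the same length. The motif CATGTG alone occurred in 14.2% of the latter. The following 4 promoters are shown because 3 belong to the melanin synthesis enzymes among the rule genes and the other to Slc24a5, a melanosomal ion exchanger outside the rule. They lie on GRCm38.p6 at chr4:80833963-80834262 (Tyrp1, plus strand), chr14:118052197-118052496 (Dct, minus strand), chr7:87493463-87493762 (Tyr, minus strand) and chr2:125067877-125068176 (Slc24a5, plus strand). Capitals mark CATGTG or its reverse complement CACATG.
Tyrp1: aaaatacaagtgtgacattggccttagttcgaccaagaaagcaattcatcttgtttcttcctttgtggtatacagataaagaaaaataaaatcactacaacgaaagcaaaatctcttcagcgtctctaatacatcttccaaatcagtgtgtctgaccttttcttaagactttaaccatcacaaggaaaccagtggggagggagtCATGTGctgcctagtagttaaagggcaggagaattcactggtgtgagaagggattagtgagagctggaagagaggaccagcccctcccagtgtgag
Dct: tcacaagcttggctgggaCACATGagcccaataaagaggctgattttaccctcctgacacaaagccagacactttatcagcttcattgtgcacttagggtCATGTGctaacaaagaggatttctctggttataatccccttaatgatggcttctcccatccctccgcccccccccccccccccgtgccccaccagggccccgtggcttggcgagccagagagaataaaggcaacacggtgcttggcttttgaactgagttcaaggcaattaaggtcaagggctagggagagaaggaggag
Tyr: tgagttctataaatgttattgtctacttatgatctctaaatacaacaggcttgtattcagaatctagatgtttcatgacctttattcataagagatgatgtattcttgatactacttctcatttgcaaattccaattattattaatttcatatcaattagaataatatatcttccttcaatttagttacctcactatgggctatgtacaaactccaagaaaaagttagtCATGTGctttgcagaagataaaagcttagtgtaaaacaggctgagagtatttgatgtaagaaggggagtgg
Slc24a5: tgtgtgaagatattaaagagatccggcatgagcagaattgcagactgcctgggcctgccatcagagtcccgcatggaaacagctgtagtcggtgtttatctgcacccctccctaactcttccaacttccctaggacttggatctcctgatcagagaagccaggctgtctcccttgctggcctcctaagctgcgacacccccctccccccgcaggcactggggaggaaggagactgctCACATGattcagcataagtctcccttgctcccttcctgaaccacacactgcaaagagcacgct
The first base of the motif lay at -46 from the start site in Tyrp1, at -232 and -150 in Dct, at -21 in Tyr and at -13 in Slc24a5. No match was found in the entries of Mitf, Kit, Gpnmb, Ptgds or Ednrb. A match is a description of these letters and not a measured binding site.

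Members made up 0.254% of the 96547 WT barcodes that passed the gene and mitochondrial limits (95% interval 0.223 to 0.288). They made up 0.0757% of 107025 in KO (0.0601 to 0.0941). In KO_PBS 0 of 111899 were members, which allows a share of up to 0.00268% when 3 counts are taken as the limit of a count of 0, and of up to 0.00330% by the exact interval. These shares were set by a threshold that moved with each library, because the rule genes made up 653 CPM (UMIs scaled to a common total) of the WT library, 272 CPM of KO and 4672 CPM of KO_PBS. The thresholds, 8 times these levels, came to 5221, 2174 and 37378 CPM. The KO_PBS library thus held the most pigment RNA and no member. Its 25% of barcodes with the fewest UMIs already carried 4501 CPM, and 44.5% of its barcodes had at least 4 rule genes, against 3.00% in WT and 0.633% in KO. Its highest barcode reached 6.08 times the library level, while the highest WT member reached 39.1 times and the highest KO member 21.3 times. With the WT threshold applied to every library, the numbers passing were 245 for WT, 1 for KO and 24339 for KO_PBS. This alternative was chosen after seeing the data. The order of the libraries therefore depended on whether the threshold was relative or common. Fewer pigment cells and less pigment RNA spread over other barcodes cannot be told apart from these numbers. The high level in KO_PBS was not particular to pigment genes. Over barcodes that passed and were not members, summed lens genes stood at 7294 CPM in KO_PBS, 464 in WT and 174 in KO. Photoreceptor genes stood at 1671, 98.5 and 37.8 CPM, and corneal epithelium genes at 19033.5, 52601 and 34567. The KO_PBS file also listed 31053 genes, against 32285 in WT and KO, and CPM were taken over each file's own genes. The cause was not tested.

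**Figure D1:**
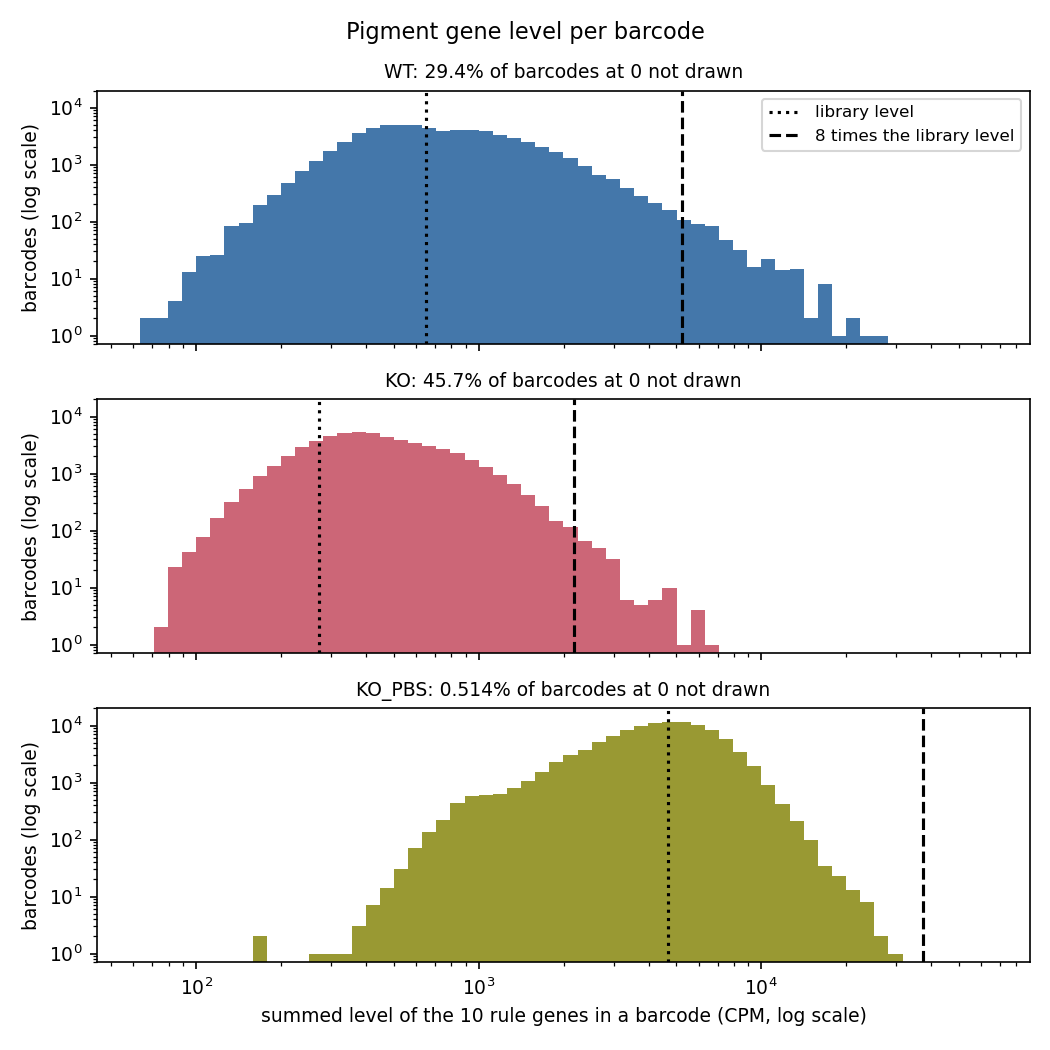
Number of barcodes (log scale) against the summed CPM of the 10 rule genes (log scale) in each library, with the library level dotted and 8 times that level dashed. Barcodes at 0 (29.4% in WT, 45.7% in KO and 0.514% in KO_PBS) are not drawn. WT and KO have thin tails past the dashed line, while the whole KO_PBS distribution sits near 4672 CPM and stops short of its line.

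The limits cut through a continuous range. In WT 56 members lay between 8 and 9 times the library level, and 83 barcodes with at least 4 rule genes lay just outside, between 7 and 8 times. In KO these numbers were 17 and 32. Exactly 4 rule genes were seen in 115 WT and 48 KO members, and 99 and 63 further barcodes failed with exactly 3. Rpe65 or Rgr removed 14 barcodes in WT and 4 in KO. Members had a median of 2375 UMIs in WT (others 2261.5) and 2968 in KO (others 2980). Of these UMIs a median of 18 in WT (6 to 143) and 8 in KO (4 to 32) were of rule genes. After every barcode was thinned to 1000 UMIs, 133 members were found in WT, 12 in KO and 0 in KO_PBS. Members at full depth made up 101 of the 133 and 5 of the 12, so most KO members at the lower depth were other barcodes. Between 2.62% and 3.16% of a library's barcode sequences also occurred in another library, but no barcode was a member in both of a pair.

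The members were selected on the levels of the rule genes, so these levels are given as a description. WT members were admitted at 5221 CPM of rule genes and KO members at 2174, so differences between them are set in part by the rule. Dct led in both libraries. It reached 5218 CPM in WT members against 325 in the other barcodes that passed, and 1376 against 94.2 in KO. Pmel stood at 1527 against 77.0 CPM in WT and at 559 against 19.7 in KO. Tyrp1 stood at 523 and 298 CPM in WT and KO members, and Mlana, a melanosome maturation protein, at 557 and 157. Tyr was low in both, with 37 UMIs (55.9 CPM) in WT members and 13 UMIs (52.3 CPM) in KO members. Mitf was the one rule gene with a higher level in KO members (169 CPM) than in WT members (72.5 CPM), apart from Kit at 233 and 181. In other barcodes Mitf was higher in KO as well, at 32.1 CPM against 9.98 in WT. Slc45a2, a melanosomal transporter, had 77 UMIs in WT members (116 CPM) and 7 in KO members (28.2 CPM). Oca2, another melanosomal membrane protein, had 46 UMIs (69.5 CPM, 50.9 to 92.7) and 11 (44.2 CPM, 22.1 to 79.2). Trpm1, a channel gene expressed in melanocytes, had 234 and 149 CPM. Kit, the stem cell factor receptor, was the least specific, at 122 CPM in other WT barcodes. Within WT it went from 249 CPM in barcodes at 4 to 8 times the library level to 96.5 CPM in those at 16 times or more.

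**Figure D2:**
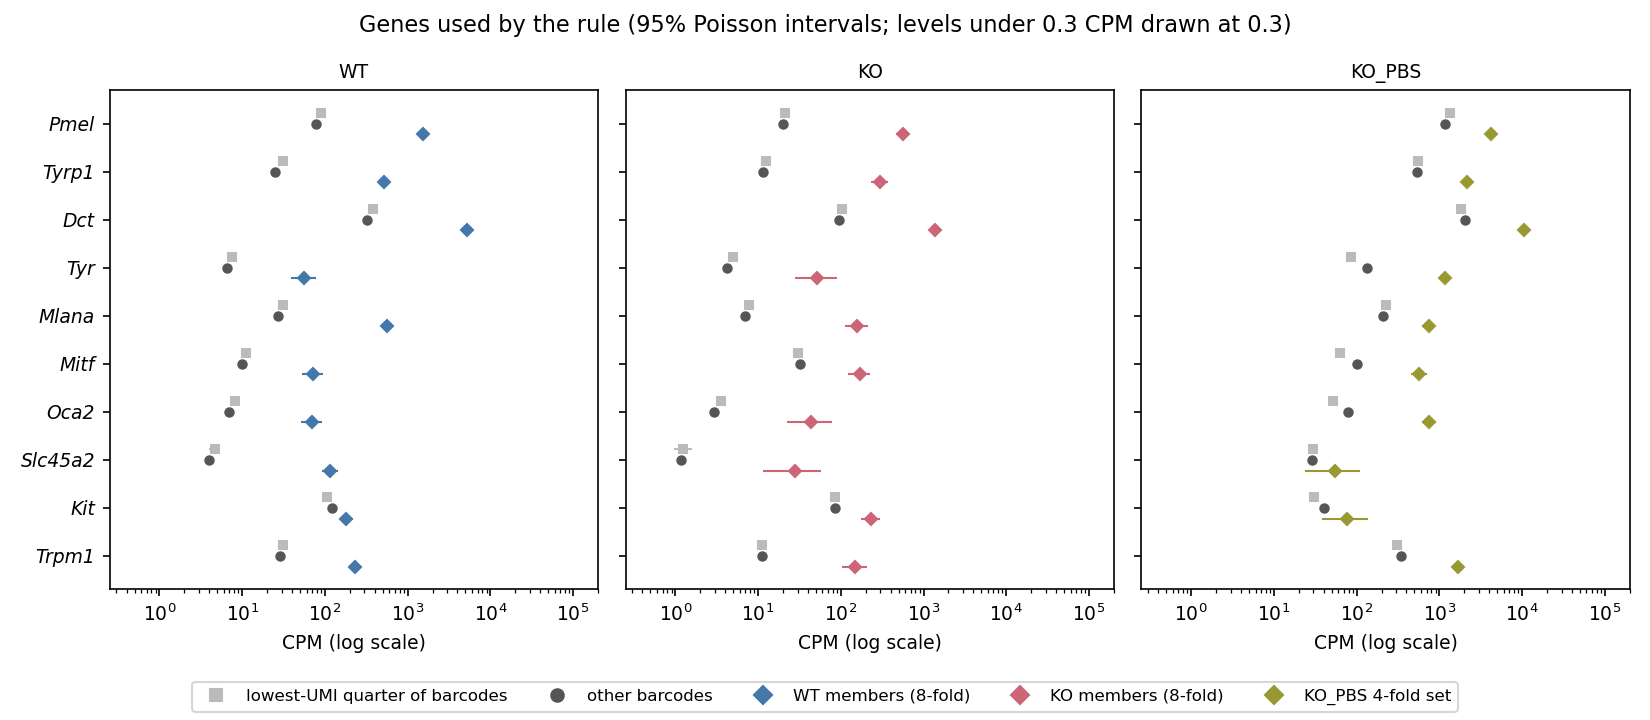
CPM (log scale) of the 10 genes that chose the members, with 95% Poisson intervals, in WT and KO members and in the 32 KO_PBS barcodes at 4 times the library level or more. The 2 grey sets are other barcodes and the 25% of lowest UMI count in each library. Dct is highest everywhere, and the grey levels are highest in KO_PBS for every gene but Kit.

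Single barcodes show what the members held. The WT member at the highest level had 3956 UMIs, of which 62 were Dct, 22 Pmel and 7 Tyrp1. It also held 8 UMIs of S100b, a calcium-binding protein of melanocytes and glia, and 60 of Krt12, the keratin of corneal epithelium. The only member with all 10 rule genes, in WT, had 11204 UMIs with 84 of Dct, 1 of Sox10, 0 of Pax3 and 189 of Krt12. The highest KO member had 5519 UMIs, with 15 of Dct, 10 of Pmel, 1 of Sox10 and 78 of Krt12. Krt12 was present in every member, and also in 100% of the other barcodes that passed in WT and KO. It made up 21920 CPM of WT members against 26037 of others, and 13279 against 13743 in KO. Malat1, a nuclear noncoding RNA, was likewise near the level of other barcodes, at 9600 against 10115 CPM in WT and 5499 against 5777 in KO. The rule genes were 0.855% of the UMIs of WT members and 0.307% of those of KO members. Rule genes were thus a small part of a member's RNA, while Krt12 and Malat1 stayed near the rest of its library. Whether each member barcode was a separate nucleus was not tested. Summed corneal epithelium genes were lower in WT members, at 44369 CPM (43863 to 44879) against 52601 in others. In KO they stood at 33271 against 34567 CPM.

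The label was checked on 11 melanocyte genes that the rule did not use. The call of a gene between pooled sums needed 20 UMIs or more (over both sums, or, against other barcodes, the observed UMIs plus those predicted at the level of the others), a ratio of at least 2 with counts under 3 set to 3, and intervals that did not overlap. In WT 3.48% of 6546 genes were called higher in members than in other barcodes. Because this minimum counts the members' own UMIs, a gene that is low elsewhere could pass it only by being high in members. Counts of listed genes against other barcodes were therefore taken with a minimum set by the other barcodes alone (20 UMIs over 2 sums of the members' size at that level), an alternative chosen after seeing the data. With it 1.37% of 6370 genes were higher in WT members and 0.706% lower. Of the 11 melanocyte genes 5 could be compared in this way, and 4 were called higher, namely Gpnmb, Slc24a5, Rab38 and Ednrb. Gpnmb, a melanosomal glycoprotein, stood at 294 CPM (255 to 339) against 27.8, and was found in 103 of 245 members. Slc24a5 stood at 204 CPM (171 to 241) against 24.7. Rab38 stood at 61.9 against 27.8 CPM and the endothelin receptor gene Ednrb at 137 against 48.1, while Mc1r, the melanocortin receptor, stood at 33.2 against 32.1. Genes that passed the first minimum only through their UMIs in members were Gpr143, a melanosomal receptor (20 UMIs, 30.2 against 1.30 CPM), Mlph, which links melanosomes to their motor (83.1 against 12.5), and Rab27a (27.2 against 8.33). Rab27a shares exon positions with another gene on its strand, so its counts are uncertain. The 11 genes summed to 912 CPM in WT members (841 to 988) and 188 in others. In the 14 WT barcodes removed for Rpe65 or Rgr they summed to 672 CPM (465 to 939), an interval that overlaps that of the members, so this sum did not set members apart from those barcodes.

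The neural crest regulators were sparse. Sox10 had 14 UMIs in 13 WT members (21.1 CPM, 11.6 to 35.5, against 1.99) and Pax3 had 7 (10.6 against 1.18 CPM). Sox10 and Pax3 occurred together in 2 members. At least 1 of Sox10, Pax3 and S100b was seen in 104 of 245 WT members (42.4%, 36.2 to 48.9) and in 5.69% of others. At 1000 UMIs these shares were 22.5% and 2.41%. S100b carried most of that, with 217 UMIs in 96 members (328 against 20.4 CPM). S100b was in none of the marker lists and is also among the genes named below from these data. Shares that count it, here and below, are therefore descriptions and do not check the label. Sox10 alone was seen in 5.31% of WT members (2.86 to 8.90) and in 0.510% of others. At least 1 of Otx2, Otx1, Six3, Six6 and Rax was seen in 13.1% of WT members (9.11 to 17.9) and in 9.13% of others. At 1000 UMIs the latter shares were 5.74% (3.17 to 9.44) and 3.65%. Pax6, the other gene of the neuroepithelial list, was left out of these counts.

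In KO 0.789% of 3931 genes were called higher in members, and 0.18% of 3890 with the minimum from other barcodes alone, by which 0.823% were lower. None of the 11 melanocyte genes could be compared there by the latter minimum. Gpnmb stood at 189 CPM (139 to 251) against 24.96 and Ednrb at 96.5 CPM (61.9 to 144) against 36.9, and both passed the first minimum only through their UMIs in members. Slc24a5 had 9 UMIs (36.2 against 9.75 CPM), Mlph 5 (20.1 against 5.89) and Sox10 2 (8.05 against 2.06), and Pax3 was at 0. Rab27a stood at 12.1 against 12.4 CPM and Mc1r, with 1 UMI, at 4.02 against 19.7. The 11 genes summed to 406 CPM (331 to 494) against 136. At least 1 of Sox10, Pax3 and S100b was seen in 8.64% of KO members (3.55 to 17.0) against 2.74% of others. At 1000 UMIs it was seen in 3 of 81 (3.70%, 0.770 to 10.4), an interval that holds the 0.892% of others. For the neuroepithelial genes the shares were 14.8% and 14.0%. The label thus had support from single melanocyte genes in WT, while in KO only the sum of the 11 genes could be read, of which Gpnmb and Ednrb held 47 and 24 of the 101 UMIs. These genes did not tell melanocytes from other pigment cells, and the barcodes are called pigment-gene-rich members here.

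**Figure D3:**
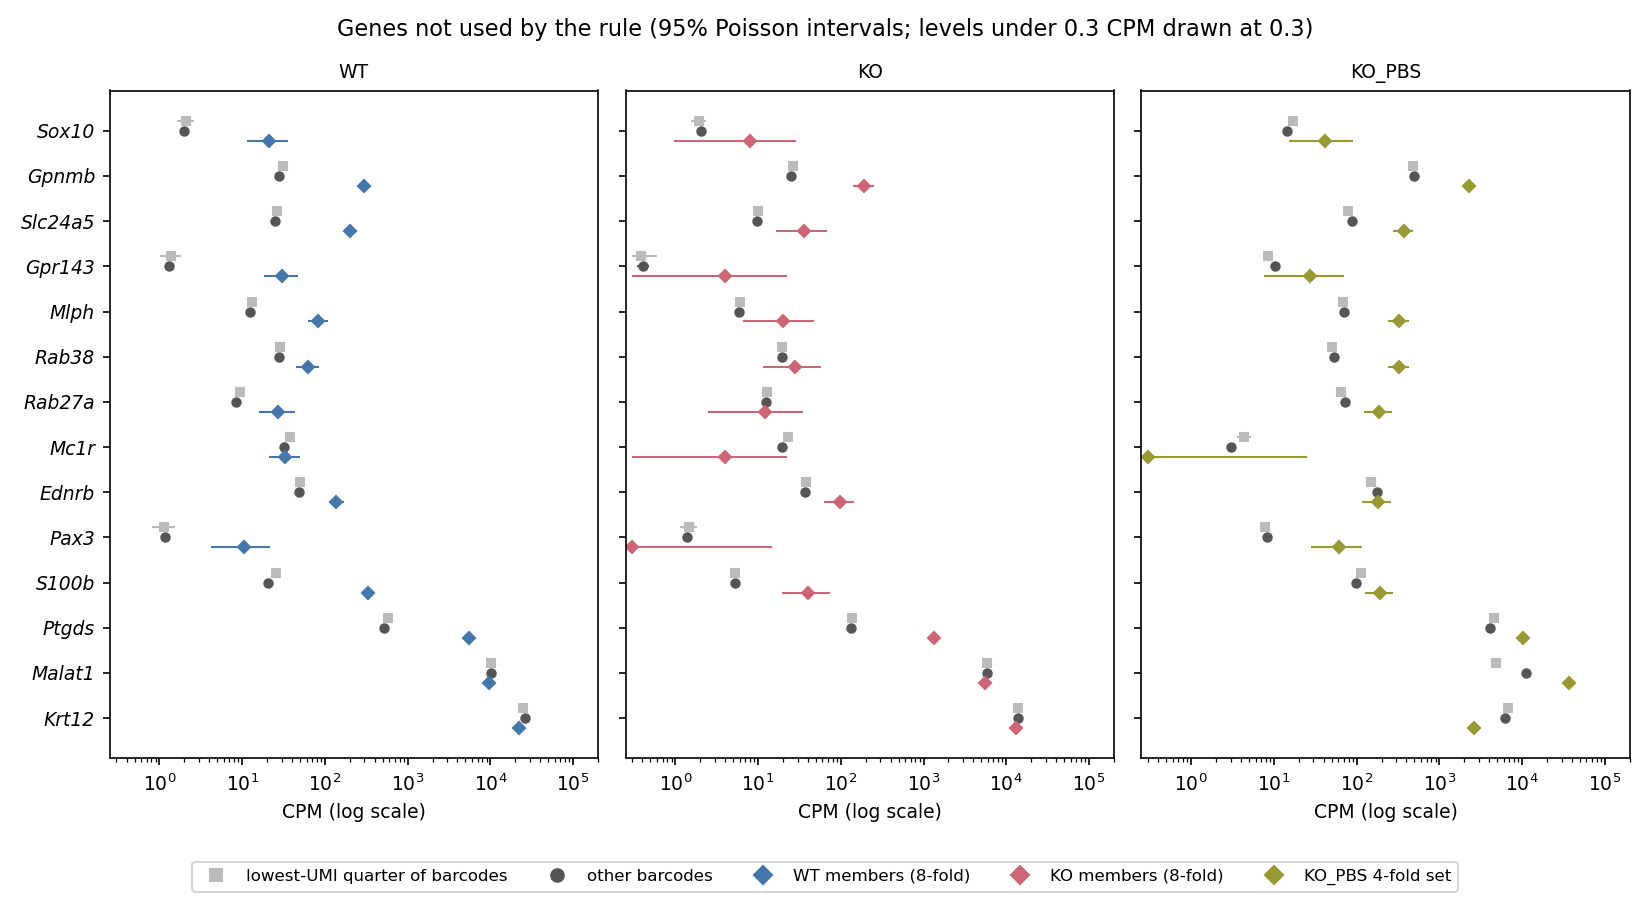
CPM (log scale) with 95% Poisson intervals of 10 melanocyte genes outside the rule, followed by S100b, Ptgds, Malat1 and Krt12, in the same sets as for the rule genes. Members lie right of the grey points for Gpnmb, S100b and Ptgds in WT and KO, and overlap or nearly overlap them for Malat1 and Krt12. In the KO_PBS set Malat1 lies right and Krt12 left of the other barcodes.

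Among 28 measured melanosome and pigment genes outside the rule, 12 could be compared in WT with the minimum from other barcodes alone. Of these 4 were called higher and 0 lower, Cd63, a tetraspanin of late endosomes (510 against 105 CPM), besides Gpnmb, Slc24a5 and Rab38. In KO 0 of 5 were called. Genes that passed the first minimum only through their UMIs in WT members included Myo5a, the melanosome motor (28.7 against 9.50 CPM), and Tspan10 (36.2 against 3.55). Of 14 neural crest and melanocyte regulators 0 of the 4 compared in WT and 0 of 5 in KO were called, and the regulator Zeb2 stood at 37.8 against 13.0 CPM in WT. Of 13 receptors known from melanocytes, 1 of the 7 compared in WT was called, Ednrb, and 0 of 4 in KO. Of the ligands 0 of 3 were called in WT and 0 of 2 in KO, and Edn3, which acts on Ednrb, had 31 UMIs in WT members (46.8 against 5.38 CPM).

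Across all genes, 228 were called higher and 30 lower (0.458%) in WT members, and 31 higher and 20 lower (0.509%) in KO members. Of these, 16 were higher in both, 51.6% of the KO list and 7.02% of the WT list. With the minimum from other barcodes alone 87 were higher and 45 lower in WT, and 7 higher and 32 lower in KO, so the balance of the directions depended on this choice, and in KO it turned. Of the 7 genes 5 were also higher in WT by that minimum. Among the genes higher in both, Ptgds, the prostaglandin D synthase of lipocalin type, had the largest smaller fold of the 2 libraries. It stood at 5594 CPM (5415 to 5777) against 524 in WT and was found in 241 of 245 members. In KO it stood at 1356 CPM (1215 to 1508) against 131, in 70 of 81 members. After Ptgds and Gpnmb, the genes next in this order were Fxyd1, Trf, S100a1, Ttr, Ednrb, Mdk, Ptn, Folr1, Nbl1 and Chchd10. Fxyd1, a sodium pump regulator, was 6.63-fold higher in WT and 4.601-fold in KO. Trf, the iron carrier transferrin, rested on few barcodes, with 73 UMIs in 24 WT members and 21 UMIs in 12 KO members, and shares exon positions with another gene. The growth factors Mdk and Ptn were 4.74-fold and 5.71-fold higher in WT and 2.55-fold and 2.48-fold in KO. Of the 16 UMIs of Ptn in KO members 6 lay in 1 barcode, and without it Ptn stood at 41.7 CPM against 25.9, under the limit of 2. Of these 12 genes, 12 were called in WT by the minimum from other barcodes alone, but 3 in KO, namely Ptgds, S100a1 and Chchd10. Several KO calls lay near the limit of 2, such as Nbl1 with 14 UMIs (2.20-fold) and Chchd10 with 30 UMIs (2.18-fold).

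Ttr, transthyretin, which the retinal pigment epithelium and ciliary epithelium express, stood at 145 against 54.1 CPM in WT and at 141 against 19.5 in KO. In KO its 35 UMIs lay in 9 members and 14 of them in 1, and without that barcode the level was 85.4 CPM. The list of 9 retinal pigment epithelium genes, which includes Rpe65 and Rgr that members lack by the rule, summed to 229.5 against 84.1 CPM in WT and 193 against 35.4 in KO. Members had 2 of the 9 at 0 in WT and 5 in KO, and Ttr supplied 35 of the 48 UMIs in KO. Rdh5, a visual cycle enzyme, stood at 60.4 against 10.9 CPM in WT. Other genes known from retinal pigment epithelium, named here after their values were seen, were Kcnj13 (84 UMIs, 127 against 8.90 CPM) and Slc16a8 (19 UMIs, 28.7 against 5.19 CPM) in WT. Rdh5, Kcnj13 and Slc16a8 passed the first minimum only through their UMIs in members. The part that RNA of pigmented epithelia has in the member profile was not tested.

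Among marker lists of other cell types, mural cell genes summed to 329 CPM in WT members against 121 in others, and Acta2, a contractile gene of smooth muscle, was called higher (208 against 33.2) among 2 compared. Myh11, another, stood at 40.8 against 10.0 CPM. In KO the mural genes summed to 153 against 130.1 CPM and 0 were called. Of the 5 mural genes 0 were at 0 in members of either library, and their part in the WT profile was not tested. In both libraries 0 of 6 corneal epithelium genes and 0 of 6 keratocyte genes were called in either direction. Of the lens genes 0 of the 5 that could be compared in WT and 0 of 2 in KO were called, and of the photoreceptor genes 0 of 3 in WT, while none could be compared in KO. Schwann cell genes summed to 133 against 87.4 CPM in WT, where Pmp22 alone was called higher, and to 133 against 120.02 in KO. Of 5 cycling genes compared in WT, Cdk1 alone was called lower in members (9.06 against 21.2 CPM), where 0.706% of all genes were lower. In KO 0 of 3 cycling genes were called.

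Some of the WT genes with the largest ratios had few UMIs in KO members. The following were chosen after their values were seen. Prpmp5 and Prb1, salivary proline-rich protein genes, stood at 322 against 9.28 CPM and 181 against 5.66 CPM, and as members of a family with close copies their counts are uncertain. Spp1, the secreted matrix protein osteopontin, stood at 376 against 20.5 CPM, and Fabp3, a fatty acid carrier, at 159 against 8.72. Prpmp5, Prb1 and Fabp3 passed the first minimum only through their UMIs in members, so their ratios are descriptions. In KO members Prpmp5 had 9 UMIs (36.2 against 0.749 CPM), Prb1 7 (28.2 against 0.446) and Fabp3 8 (32.2 against 1.56), too few for a call. Their ratios to other barcodes were 48.3, 63.2 and 20.7, against 34.7, 32.0 and 18.2 in WT. Spp1 differed from these, with 13 UMIs in KO members (52.3 against 28.4 CPM).

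Within WT, levels of several genes outside the rule were higher where the pigment level was higher. From 664 barcodes at 4 to 8 times the library level, through 199 at 8 to 16, to 46 at 16 or more, Gpnmb stood at 118, 213 and 559 CPM. Slc24a5 stood at 85.2, 144 and 399 CPM, S100b at 96.2, 251 and 579, and Ptgds at 1833, 4125 and 10378. Sox10 stood at 8.80, 15.8 and 38.6 CPM, from 16, 8 and 6 UMIs. Lists of other cell types also stood higher, the retinal pigment epithelium genes at 103, 124 and 572 CPM (84.1 in other barcodes) and the mural genes at 205, 278 and 495 CPM (121 in others). Over the same steps Krt12 was 24361, 22990 and 18435 CPM, below the 26037 of other barcodes in every step. In KO the top set held 8 barcodes with 8 UMIs of Gpnmb (297 CPM, 128 to 586) after 50.6 and 176 CPM in the lower sets, and Krt12 stayed between 13239.5 and 13599.9 CPM.

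**Figure D4:**
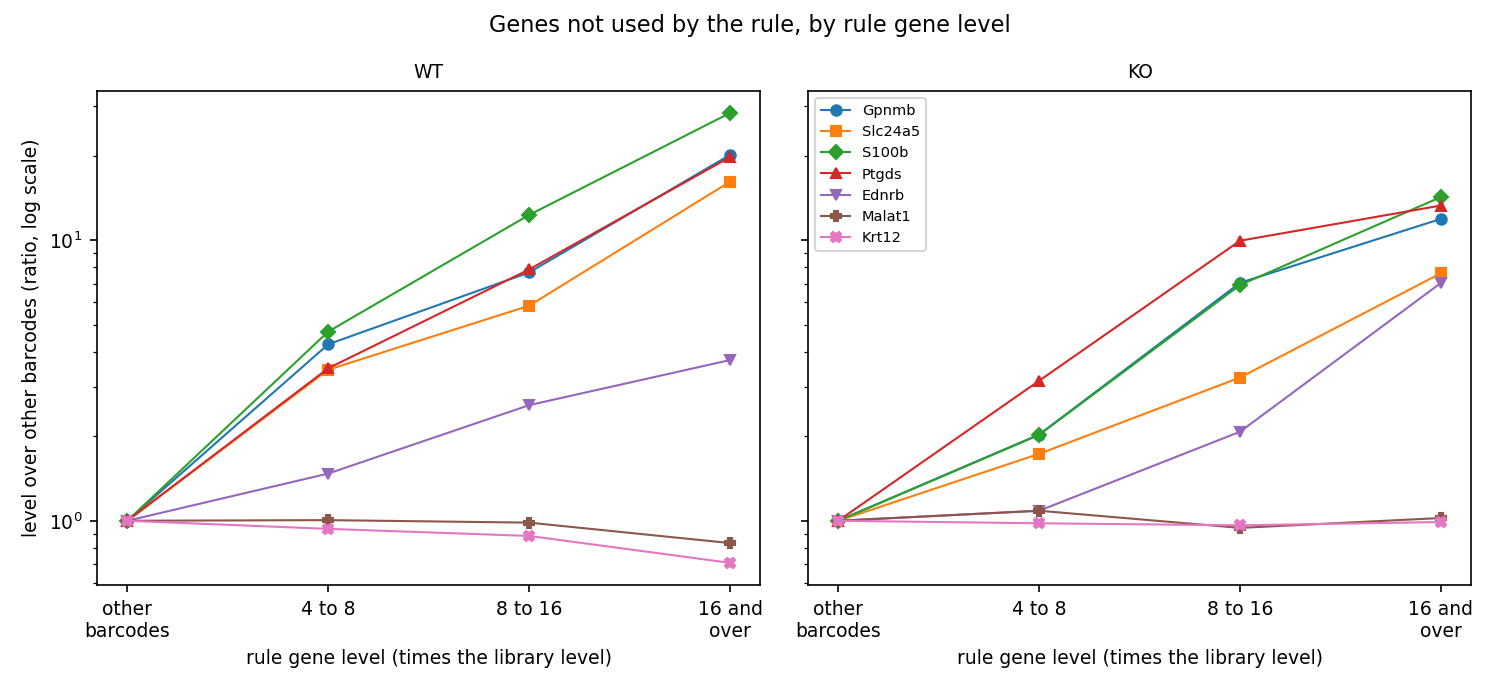
Level of 7 genes that the rule did not use, as a ratio to other barcodes (log scale), by the barcode's rule gene level. In WT Gpnmb, Slc24a5, S100b, Ptgds and Ednrb lie higher in each step while Krt12 falls below 1. The KO set at 16 times or more holds 8 barcodes.

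Because KO_PBS had no member, its 32 barcodes at 4 times the library level or more were described, a use chosen after seeing the data. They had a median of 3688.5 UMIs against 1446 over the barcodes that passed, and the rule genes were 2.18% of their UMIs. Dct stood at 10419.8 CPM, Pmel at 4169, Tyrp1 at 2177 and Tyr at 1181. Of 2974 genes, 20.1% were called higher and 8.98% lower than in other barcodes, and with the minimum from other barcodes alone 10% and 13.6% of 2539. Larger shares of the genes thus differed from the rest of the library than in members of WT and KO. Malat1 stood at 37173 against 11261 CPM, and Krt12 at 2638 against 6158. Of 6 corneal epithelium genes 6 were called lower, as were 4 of 5 lens genes, 5 of 5 photoreceptor genes and 2 of 2 plasma cell genes. Of 33 interferon and antigen presentation genes 12 were called lower and 0 higher, among them Cd74 (914 against 1899 CPM). The mural genes summed to 1188 against 529 CPM and Myh11 was called higher (508 against 140 CPM), and their part in the profile of this set was not tested. Gpnmb (2259.8 against 497 CPM), Slc24a5 (371 against 88.8), Mlph (323 against 70.9) and Rab27a (185 against 72.2) were called higher, with 6 of 7 pigment genes in all, and Rab38 stood at 323 against 52.8. Ednrb was not called (179 against 175 CPM), and of the 7 retinal pigment epithelium genes other than Rpe65 and Rgr, which the rule keeps at 0, 1 could be compared and 0 were called.

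The genes called higher in the KO_PBS set were long. Their median gene length was 129 kb, against 34.4 kb for all genes compared and 6.59 kb for those called lower. With the minimum from other barcodes alone these were 173, 25.5 and 8.33 kb. In WT members the genes called higher had a median of 25.03 kb against 26.6 kb for all compared, and in KO members 24.96 kb against 28.7 kb. Leading genes of the KO_PBS set were taken by the first minimum and with at least 30 UMIs in the set. They included Grem1, a BMP antagonist (213 against 10.9 CPM), Eya1, an eye developmental regulator (295 against 33.3), and the transcription factor Foxp2 (914 against 107). Grem1, with 31 UMIs in 9 of the 32 barcodes, and Eya1 passed the first minimum only through their UMIs in the set. Pax6, a regulator of eye epithelia, stood at 893 against 456 CPM. At least 1 of Otx2, Otx1, Six3, Six6 and Rax was seen in 20 of the 32 (62.5%, 43.7 to 78.9) and in 25.2% of others. At 1000 UMIs, over the 31 and 98080 barcodes deep enough, these shares were 29.0% (14.2 to 48.0) and 17.1%, so the interval held the level of others. At least 1 of Sox10, Pax3 and S100b was seen in 13 (40.6%, 23.7 to 59.4) and in 17.1% of others, and at 1000 UMIs in 25.8% (11.9 to 44.6) and 11.5%. S100b, which was in none of the marker lists, was seen in 12 of the 32. Sox10 and Pax3 occurred together in 3 of the 32, each of which also had S100b. The barcode at the highest level, with 14119 UMIs, had 216 of Dct, 30 of Tyr, 25 of Pax6, 800 of Malat1, 0 of Sox10 and 0 of Pax3. Genes of both lineages, S100b counted, occurred together in 8 of the 32 (25%), against 4.69% of others, so the 13 and the 20 barcodes overlapped. Each lineage alone was also seen more often in the 32, so a larger joint share follows in part from the single shares. In WT genes of both occurred together in 6 of 245 members (2.45%) and 0.645% of others, and in KO in 0 of 81 members and 0.410% of others. The joint share was not taken at 1000 UMIs, although the 32 had a median of 3688.5 UMIs against 1446.

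KO members were compared with WT members over 5809 genes. Higher in KO were 553 genes (9.52%) and lower were 144 (2.48%). Among the other barcodes of the same libraries 19.3% of 22488 genes were higher and 10.6% lower. Of the 553 genes, 418 were also past 2-fold in the same direction in other barcodes, and of the 144 genes 65 were. The ratio in members lay within 1 log2 unit of the ratio in other barcodes for 475 and 103 genes. The median log2 ratio was 0.19 in members and 0.24 for the same genes in other barcodes. The split of the called genes depended on the scaling. Higher genes were 79.3% of those called, but 61.9% after centring on the median gene and 42.9% with TMM factors, which lowered every log2 ratio by 0.34. With TMM factors 295 genes were higher and 392 lower.

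**Figure D5:**
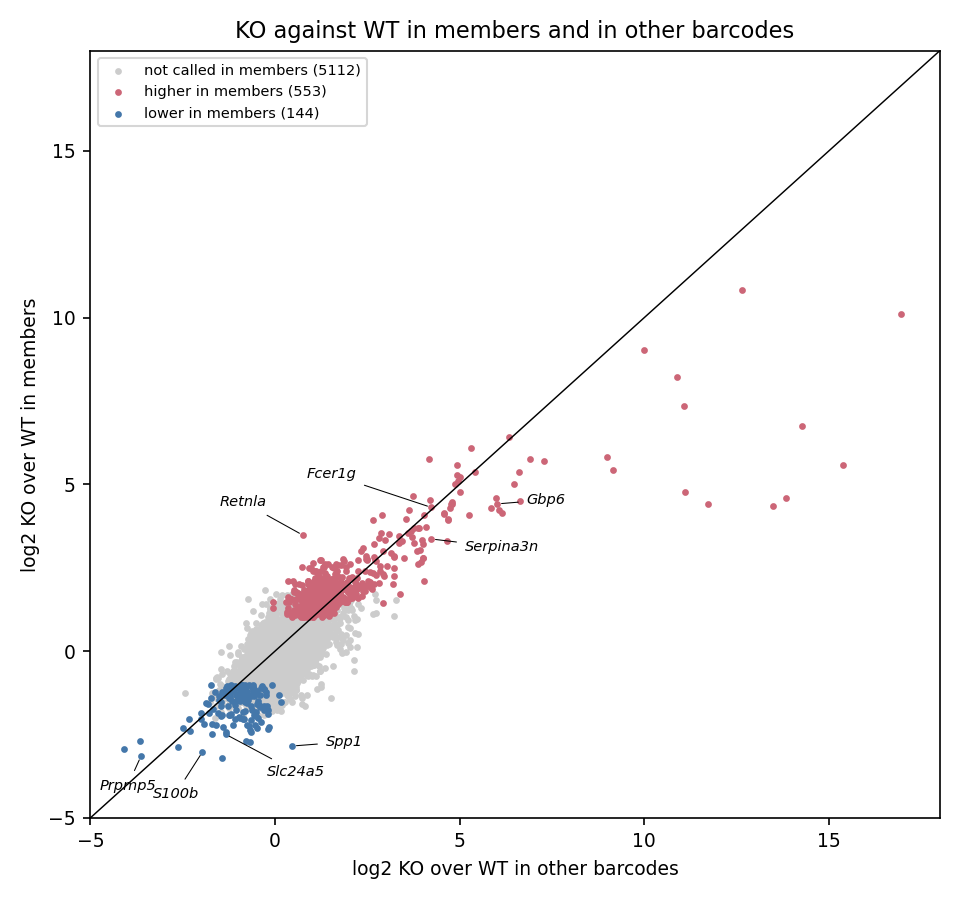
Log2 ratio of KO to WT in members (vertical) against that in the other barcodes of the same libraries (horizontal), 1 point per gene with at least 20 UMIs, with the line of equality. Red and blue points are the 553 higher and 144 lower genes. Most follow the line, while Retnla lies above it and Spp1 below.

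Interferon-induced and antigen presentation genes were higher in KO members than in WT members. Of 40 listed, 34 could be compared and 33 were higher in KO members, with a median log2 ratio of 2.94. In other barcodes 39 of 40 were higher, with a median of 3.61 that is not over the same genes. The gene not called there was called in members. Cd74, the MHC class II invariant chain, stood at 2530.2 CPM in KO members and 68.0 in WT members, and at 2112 and 65.8 in other barcodes. B2m, the MHC class I light chain, stood at 2043 and 248 CPM in members and at 1770.1 and 117 in others. Irf9 was not called (96.5 against 52.9 CPM). Within KO 0 of 37 of these genes differed between members and other barcodes. Within WT, B2m was called higher among 22 (248 against 117 CPM). All 4 plasma cell genes were also higher in KO members, and all 4 had 0 UMIs in WT members. Their median log2 ratio of 8.73 thus rests on counts of 3 set in place of 0, and is not set against the 11.9 of other barcodes. Igkc, an antibody light chain, stood at 8282 CPM in KO members and at 12362 CPM in other KO barcodes. Of 6 keratocyte genes 5 were higher in KO members, with a median of 1.96, and 6 of 6 in other barcodes, with a median of 1.86. Most differences of members in these lists were thus shared by the barcodes around them, and a response of pigment cells cannot be told apart from RNA of the whole library.

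The genes higher in KO members that also lay at least 1.5-fold above other KO barcodes were led by Gbp6, Fcer1g, Usp18, Retnla, Serpina3n, Apobec1, Emsy and Tlr3. Gbp6, an interferon-induced GTPase, had 24 UMIs in KO members and 1 in WT members, and its counts are uncertain because another gene shares exon positions with it. Fcer1g, an Fc receptor chain of myeloid cells, stood at 209 against 10.6 CPM (log2 ratio 4.31, 2.84 to 6.01). The ratio in other barcodes was 4.23. Usp18, which removes ISG15 from proteins, stood at 105 against 9.06 CPM, and Serpina3n, a protease inhibitor, at 109 against 10.6. Retnla, a secreted product of alternatively activated macrophages, stood at 101 against 9.06 CPM. Of its 25 UMIs in KO members 20 lay in 1 barcode, and without that barcode it stood at 20.6 CPM. Emsy (14 UMIs) and Tlr3 (16 UMIs), a receptor for double-stranded RNA, had log2 ratios of 2.64 (0.64 to 4.83) and 2.61 (0.76 to 4.62), intervals that hold the 1.03 and 1.36 of other barcodes. Since these 8 genes had to lie above other KO barcodes, a larger ratio in members than in others follows in part from their choice. The log2 ratio was smaller in members for Gbp6 (4.41 against 6.02 in others) and Serpina3n (3.36 against 4.23). Of the 7 UMIs of Tlr3 in WT members 3 lay in 1 barcode.

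Lower in KO members by the same rule were Prpmp5, S100b, Spp1, Tagln, Myl9, Prb1, Slc24a5 and Pcp4. These had to lie at least 1.5-fold above other WT barcodes, so a larger fall in members than in others follows in part from their choice. Prpmp5 and Prb1 fell less in members, with log2 ratios of -3.15 and -2.69 against -3.63 and -3.67 in other barcodes. S100b fell by 3.03 on the log2 scale, from 328 to 40.2 CPM, and by 1.97 in other barcodes. Of its 10 UMIs in KO members 4 lay in 1 barcode, without which it stood at 25.04 CPM. Spp1 fell by 2.85 (376 to 52.3 CPM), while its ratio in other barcodes was 0.47. Its counts are uncertain because of exon positions shared with another gene. Tagln and Myl9, contractile genes of smooth muscle, each had 3 UMIs in KO members against 53 and 52 in WT members, and moved with the mural genes above. At the 16-fold threshold the Myl9 log2 ratio was 0.0283. Pcp4 had 42 UMIs in WT members and 0 in KO members, a 5.26-fold fall with the 0 set to 3 counts. The upper limit of its log2 ratio was -1.62. It also shares exon positions with another gene.

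Of 15 melanosome and pigment genes outside the rule compared between KO and WT members, 2 were lower and 0 higher, with a median log2 ratio of -0.59 against 0.19 over all genes compared, of which 2.48% were lower. In other barcodes 4 of 28 were lower and 7 higher, with a median of 0.44, while 10.6% and 19.3% of all genes there were lower and higher. The 28 include genes that could not be compared in members, so the 2 medians are not of the same genes. Slc24a5 fell by 2.49 (204 to 36.2 CPM) and Mlph by 2.05 (83.1 to 20.1 CPM), and in other barcodes by 1.34 and 1.09. Gpnmb was not called (log2 ratio -0.64, -1.29 to -0.02). Ptgds fell by 2.04 in members and by 2.00 in others. Genes of other eye tissues were lower too. Of the lens genes 3 of 5 were lower in KO members (median log2 ratio -1.56) and 5 of 6 in other barcodes (-1.46). Of the photoreceptor genes 0 of 1 compared in members and 5 of 5 in other barcodes (-1.28) were lower. For both lists the genes compared in members and in other barcodes were not the same. Because KO members were admitted at 2174 CPM of rule genes and WT members at 5221, these members differ in pigment level by construction. With WT members taken at the KO threshold, an alternative chosen after seeing the data, the WT set grew to 1150 barcodes, the Slc24a5 ratio was -1.50 and the S100b ratio -1.72.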

How the data were processed

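Nuclei of frozen whole mouse corneas were profiled in 3 libraries of 5 pooled mice, using version 3 of the 3' kit of 10x Genomics, per the labels' protocols. The files as deposited by the authors hold raw UMI counts for every gene in every barcode. Per the file headers, they were written by Cell Ranger 7.0.1. The build is mm10 per the submitters' processing notes, and the barcode filter and the handling of intronic reads are not given in the sources used here. The files held 96587, 107031 and 114357 barcodes in WT, KO and KO_PBS, with 256852883, 352627863 and 178988562 UMIs. The gene lists differed, with 32285 genes in WT and KO and 31053 in KO_PBS. Gene comparisons used the 30406 gene IDs found in every file, and 0 per-sample columns were left unused.

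The member barcodes and the gene lists were chosen with earlier results of these data known. UMIs were summed over members, and over all other barcodes that passed the gene and mitochondrial limits, and given as CPM. Rule genes, Rpe65 and Rgr were left out of all calls. A gene was called at 20 UMIs and a 2-fold ratio with exact 95% Poisson intervals that did not overlap, counts under 3 being set to 3, and counts of listed genes against other barcodes took the UMI minimum from the level of those barcodes alone. This is a rule of size on pooled counts, without replicates, and no count model was fitted. The calling script was tested on simulated counts. Named outside the lists are the 12 genes called higher in members of both libraries that had the largest smaller fold, and 8 genes each way between KO and WT members with at least 50 CPM and 1.5 times the level of other barcodes. Single values of 2 listed genes are not reported here. Mitochondrial, ribosomal, immunoglobulin, haemoglobin and predicted genes were not named so. No doublet caller was run, and members over 3 times the members' median UMIs were left out in an alternative. Shares of barcodes with a UMI were also taken at 1000 UMIs, over barcodes with at least that many. The alternatives are listed in the closing section, and edgeR 4.0.16 in R 4.3.3 gave TMM factors for one of them. No comparison of KO_PBS members was possible because there were 0. Promoters came from RefSeq, and gene lengths and exon overlaps on the same strand from GENCODE on GRCm38. Sums and intervals were computed with scipy 1.17.1 and numpy 2.4.6, tables with pandas 2.3.3 and figures with matplotlib 3.10.9, in python 3.11.15.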

Additional observations from a re-analysis of the deposited data

How the results depend on the processing

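Depth limits these results: KO members rest on 248597 UMIs, and a gene with 20 UMIs there has a wide counting interval. The number of members in WT, KO and KO_PBS was 245, 81 and 0. It was 130 in WT and 33 in KO with at least 5 rule genes, 144 in KO with at least 3, and 159 in WT with at least 1000 genes. At 4 times the library share it was 909, 328 and 32, at 16 times 46 in WT and 8 in KO, and at 1000 UMIs 133 and 12. A common share at the highest threshold gave 0 in WT and 0 in KO. Common shares chosen after seeing the data gave 1150 in WT and 44145 in KO_PBS at the lowest threshold, and 1 in KO and 24339 in KO_PBS at the WT threshold.

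Against other barcodes, WT members had 71 genes higher and 0 lower with at least 50 UMIs, and 852 higher and 63 lower with no minimum, in place of 228 and 30. KO members had 4 and 1, and 254 and 53, in place of 31 and 20. With the UMI minimum set by other barcodes alone, WT had 87 higher and 45 lower and KO 7 and 32. By that minimum genes higher in members can drop out, and genes lower in members can enter. WT barcodes at 4 times the library share had 18 lower. Both alternatives were chosen after seeing the data. Between KO and WT members 553 genes were higher and 144 lower. With at least 50 UMIs 267 were higher, with TMM factors 295 were higher and 392 lower, and with the deeper sum thinned 331 were higher. Centring on the median gene gave 244 lower. Members at 16 times gave 52 higher and 32 lower, the lowest common share 956 higher, and 4 times 1713 higher and 292 lower, the last 2 chosen after seeing the data. The cause was not tested, apart from the smaller or larger sets that such thresholds make. The Myl9 ratio turned from -2.70 to 0.0283 at 16 times, where KO had 8 barcodes. Of 312 values for named genes, this one included, 280 stayed within their interval and 31 moved out of it without changing sign. Of 231 list medians 218 stayed, 13 moved and 0 changed sign where the interval excluded 0. The highest common share left no members to compare, and no alternative for KO_PBS members could be run. No paired analysis was possible because each condition has 1 library.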
